A study of Homo sapiens with 24 samples.

Results

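The data analyzed here describe 10 immediate early genes in 2 human lung adenocarcinoma cell lines: the Fos genes FOS, FOSB, FOSL1 and FOSL2, the Jun genes JUN, JUNB and JUND, the zinc finger genes EGR1 and EGR3, and IER3. They were chosen by name, as every probe that carries one of these symbols in the scanner files, which gave 11 probes among 34127 on the array and 10 genes among the 24655 symbols on it. IER3 had 2 probes and every other gene 1. Pirfenidone at 0.75 mg/ml, or an equal volume of PBS as the control, was given to A549 and H1975 cells, and RNA was taken after 6 h or 24 h, which makes 8 groups of 3 samples and 24 one-color Agilent arrays. The labels give no other agent, no transgene and no genotype, and both are established cell lines. The comparison of treated with control cells asks how Pirfenidone, an antifibrotic drug, alters transcription in non-small cell lung cancer cells. Nothing in the labels says whether the 3 samples of a group were separate cultures, so the p-values measure the spread between these samples, which may be technical.

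Immediate early genes are transcribed within minutes of a growth factor or stress signal without new protein synthesis, and most of their transcripts are lost again soon afterwards. Fos and Jun proteins pair through leucine zippers to form AP-1, which binds TGANTCA and related sites, whereas EGR1 and EGR3 are zinc finger factors that bind GC-rich sites. FOSL1 and FOSL2 lack the strong activation domain of FOS and FOSB, and FOSL1 is kept up by sustained ERK signaling in many carcinoma cells. JUND is the Jun protein that resting cells keep, JUNB often opposes JUN, and IER3 is an early gene that modulates ERK signaling and cell survival.

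The start regions of 4 of these genes are shown because EGR1 and FOSB had the levels that ran most alike over the arrays, and JUN and JUND the largest positive changes in H1975 cells at 24 h. Each line gives 250 bases that end just before the transcription start, 5′ to 3′ on the strand of the gene, from RefSeq on GRCh38.p14. Capitals mark matches, on either strand, to the cAMP response element (TGACNTCA or its core TGACGT), to the CArG box that serum response factor binds, or to an EGR site (GCGNGGGCG). The EGR1 region lies at chr5:138465229-138465478 on the plus strand, FOSB at chr19:45467746-45467995 on the plus strand, JUN at chr1:58784048-58784297 on the minus strand and JUND at chr19:18281623-18281872 on the minus strand.
EGR1: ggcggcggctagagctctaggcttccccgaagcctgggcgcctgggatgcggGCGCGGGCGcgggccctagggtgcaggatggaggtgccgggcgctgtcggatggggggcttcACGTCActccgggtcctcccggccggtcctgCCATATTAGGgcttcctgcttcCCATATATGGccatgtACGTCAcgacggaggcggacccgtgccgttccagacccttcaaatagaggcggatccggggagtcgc
FOSB: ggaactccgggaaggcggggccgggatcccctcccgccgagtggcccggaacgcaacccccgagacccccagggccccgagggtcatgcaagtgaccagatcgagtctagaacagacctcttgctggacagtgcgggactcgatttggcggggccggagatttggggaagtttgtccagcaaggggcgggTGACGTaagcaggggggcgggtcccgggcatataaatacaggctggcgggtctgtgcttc
JUN: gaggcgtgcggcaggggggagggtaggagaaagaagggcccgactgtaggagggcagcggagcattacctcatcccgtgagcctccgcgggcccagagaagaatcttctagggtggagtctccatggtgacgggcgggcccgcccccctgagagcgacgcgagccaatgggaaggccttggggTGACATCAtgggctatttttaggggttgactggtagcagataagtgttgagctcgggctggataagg
JUND: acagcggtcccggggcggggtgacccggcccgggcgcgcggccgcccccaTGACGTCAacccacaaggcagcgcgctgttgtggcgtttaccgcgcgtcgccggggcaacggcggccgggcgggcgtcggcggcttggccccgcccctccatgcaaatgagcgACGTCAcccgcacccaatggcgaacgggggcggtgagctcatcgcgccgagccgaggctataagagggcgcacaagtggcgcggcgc
The EGR1 region held 2 CArG boxes, at 105 to 96 and at 83 to 74 bases before the start, 2 core elements and 1 EGR site. JUN held TGACATCA at 67 to 60 bases before the start, and JUND held TGACGTCA at 200 to 193 and a second core at 87 to 82. Of the 10 genes, 7 had such a region available (FOS, FOSB, FOSL2, JUN, JUNB, JUND and EGR1), and 5 of these 7 held the core TGACGT, which is part of the full element TGACGTCA, against 7.1% of 35116 start regions of the same length. The full element TGACNTCA was found in 2 of the 7 (6.87% of all regions), the CArG box in 1 (1.16%), the EGR site in 1 (8.41%) and the AP-1 site TGANTCA in 0 (6.57%). JUNB had no match to any of them. A match describes the letters in this window and was not measured as a binding site.

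A level is the log2 processed signal with the array's own 75th percentile subtracted, so that 0 is the signal that 75% of the spots did not exceed. Levels are compared between samples for 1 probe and not between probes. To pass, or be called, a probe needed a limma p of at most 0.05 after Benjamini-Hochberg adjustment over all 23827 probes tested, together with a difference of 1 or more on the log2 scale, a fold of 2. Of the 11 probes, 10 were tested, and the EGR3 probe was not, because it was not well above background on all 3 arrays of any group.

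Each array had between 62.7% and 69.5% of its probes well above background, and 0 probes were saturated. The arrays lay on 7 slides and fall into 4 runs, named here after a date in the names of the files, although what the date marks is not stated. Both lines were in runs 1 and 3 but never on 1 slide, and within each slide the place of a sample followed its treatment and time, so that treatment and place cannot be told apart. The A549 arrays of run 1 at 24 h, replicate 3 of PBS and of Pirfenidone, stood apart from the other A549 arrays at 24 h in the levels of genes such as FOSB and FOSL1. No quality limit marked them, as 63.4% and 65.2% of their probes were well above background. Results that moved without them are given both ways. All 6 epithelial genes checked (EPCAM, CDH1, KRT7, KRT8, KRT18 and KRT19) were well above background on every array. AKR1B10, AKR1C1, ALDH1A1 and NQO1, which NRF2 drives in A549 cells, were brighter in every A549 group than in every H1975 group, and NKX2-1, a lung lineage factor, was above background on every H1975 array and on no A549 array. Of the markers of other cell types, CD3E and 4 of 5 PTPRC probes were above background on at most 1 of the 12 arrays of either line, and CD68 and COL1A1 were above it on every array. COL1A2, 2 of 3 PECAM1 probes and 1 of 2 VWF probes were above it on every H1975 array and on no A549 array. Of these blood, fibroblast and endothelial markers 2, 2 and 3 probes were tested, and 0 were called with Pirfenidone in any of the 4 comparisons.

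The genes that set the lines apart were EGR1 and FOSL1. With PBS, EGR1 was 7.18-fold higher in H1975 than in A549 cells at 6 h and 15.7-fold higher at 24 h, and FOSL1 was 3.76-fold and 6.44-fold higher. JUND was higher in H1975 cells by less than the fold limit, and FOS, FOSL2, JUN, JUNB and IER3 did not pass at either time. Thus 2 of 10 probes were called at 6 h, where 32.4% of all probes tested were called, and 2 of 10 at 24 h, where the share was 32.9%.

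EGR1 was measured by a probe at chr5:137804891-137804950 of hg19 on the plus strand. With PBS, replicates 1, 2 and 3 of A549 cells had levels of -2.15, -2.38 and -3.05 at 6 h, and of -3.38, -2.93 and -4.38 at 24 h. Those of H1975 cells had 0.43, 0.27 and 0.26 after 6 h, and 0.55, 0.48 and 0.19 after 24 h. Every H1975 array was above every A549 array, and the 3 H1975 samples of a group lay much closer together than the 3 A549 samples. The difference in log2 level was 2.84 at 6 h (standard error 0.29, limma adjusted p = 7.1e-08) and 3.97 at 24 h (standard error 0.29, limma adjusted p = 5.8e-10). Within runs 1 and 3, which hold both lines, it came to 3.47 and 2.65 after 6 h, and to 4.57 and 3.48 after 24 h. Without the run 1 pair of A549 arrays the 24 h difference was 3.57.

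FOSL1 was measured by a probe at chr11:65660098-65660157 of hg19 on the minus strand. With PBS, A549 cells had -0.46, 0.03 and 0.22 after 6 h, and -1.31, -0.62 and -2.16 after 24 h. H1975 cells had 1.91, 1.83 and 1.78 after 6 h, and 1.53, 1.40 and 1.04 after 24 h. The lines did not overlap at either time. The difference in log2 level was 1.91 at 6 h (standard error 0.33, limma adjusted p = 5.0e-05) and 2.69 at 24 h (standard error 0.33, limma adjusted p = 7.9e-07). It was 1.69 and 1.80 in runs 1 and 3 at 6 h, 3.20 and 2.15 at 24 h, and 2.29 at 24 h without the run 1 pair.

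JUND levels (probe at chr19:18391371-18391430 of hg19, minus strand) were -1.9976, -1.99 and -2.15 in A549 cells with PBS at 6 h and -1.51, -1.03 and -1.21 in H1975 cells. Without overlap between the groups, the log2 difference was 0.80 (limma adjusted p = 6.8e-04). At 24 h the levels were -1.80, -1.80 and -1.40 against -0.91, -0.90 and -1.33, again without overlap, with a log2 difference of 0.62 (limma adjusted p = 0.00512), of which run 1 gave 0.07 and run 3 gave 0.89. EGR1, FOSL1 and JUND were the 3 of 10 probes without overlap between the lines at each time, against 66.3% and 63.6% of all probes.

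FOSB, whose protein has the strong activation domain, was the only one of these genes with a higher mean in A549 cells by more than the fold limit at 6 h. Its levels (probe at chr19:45978205-45978264 of hg19, plus strand) were -3.88, -3.99 and -5.37 in A549 cells and -6.36, -5.15 and -5.39 in H1975 cells with PBS. The groups overlapped through A549 replicate 3, of run 1. The log2 difference of -1.22 missed the threshold (limma adjusted p = 0.0508). It was -1.70 and passed without that A549 array, although run 1 also gave the lowest H1975 value. It was -1.47 and passed without H1975 replicate 2. It also passed with the run as a block, at -1.02, and with quantile normalization, at -1.30. At 24 h the A549 levels were -4.87, -5.33 and -7.25, the last not well above background, and the difference was 0.02. It was -0.70 without the run 1 pair of A549 arrays, with the H1975 array of run 1 kept, which did not pass. Within runs 1 and 3, which hold both lines, the difference was -0.9989 and -1.16 at 6 h, and 0.90 and -0.31 at 24 h.

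**Figure D1:**
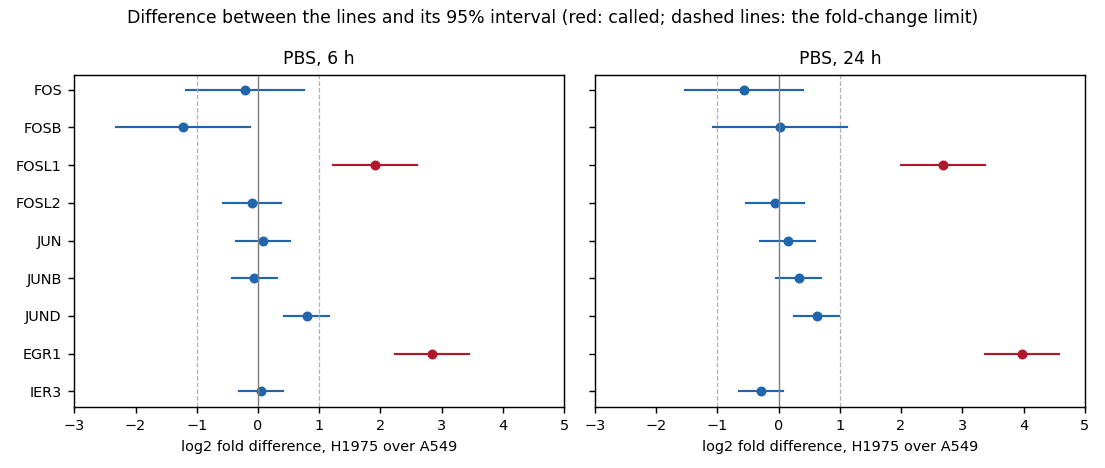
Log2 difference of level between H1975 and A549 cells with PBS at 6 h (left) and 24 h (right) for the 9 genes tested, with points for the limma estimate from 3 arrays per group and bars for its 95% interval; red points passed and dashed lines mark the fold-change limit. EGR1 (2.84 and 3.97) and FOSL1 (1.91 and 2.69) lie to the right of the limit at both times, and JUND (0.80 and 0.62) lies above 0 but inside it.

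With Pirfenidone, none of the 10 probes passed in any of the 4 comparisons in the fit without a block for run or slide. With the slide as a random block, FOSL1 passed in H1975 cells at 6 h. FOSL1 had a lower mean with Pirfenidone in every comparison, with log2 differences between -1.13 and -0.08. In H1975 cells at 24 h, JUN, JUND, IER3 and EGR1 had higher means by a log2 difference between 0.44 and 0.62. In A549 cells at 6 h 0 of 10 probes were called, against 0.176% of all probes tested, and at 24 h 0 of 10, against 0.0126%. The same counts in H1975 cells were 0 of 10 at 6 h, against 0.491%, and 0 of 10 at 24 h, against 1.89%. At an unadjusted limma p under 0.05, the counts were 1 (FOSL1), 0, 2 (FOSL1 and JUND) and 5 (FOSL1, JUN, JUND and both IER3 probes) of 10, against 6.01%, 0.953%, 11% and 22% of all probes. The groups did not overlap for 2, 0, 2 and 6 of the 10 probes, against 15.3%, 1.82%, 17.7% and 31.9% of all probes. The median log2 fold change over the 10 probes was 0.03, -0.13, -0.06 and 0.32 in the same order, beside -0.01, -0.02, 0.05 and 0.02 over all probes tested.

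**Figure D2:**
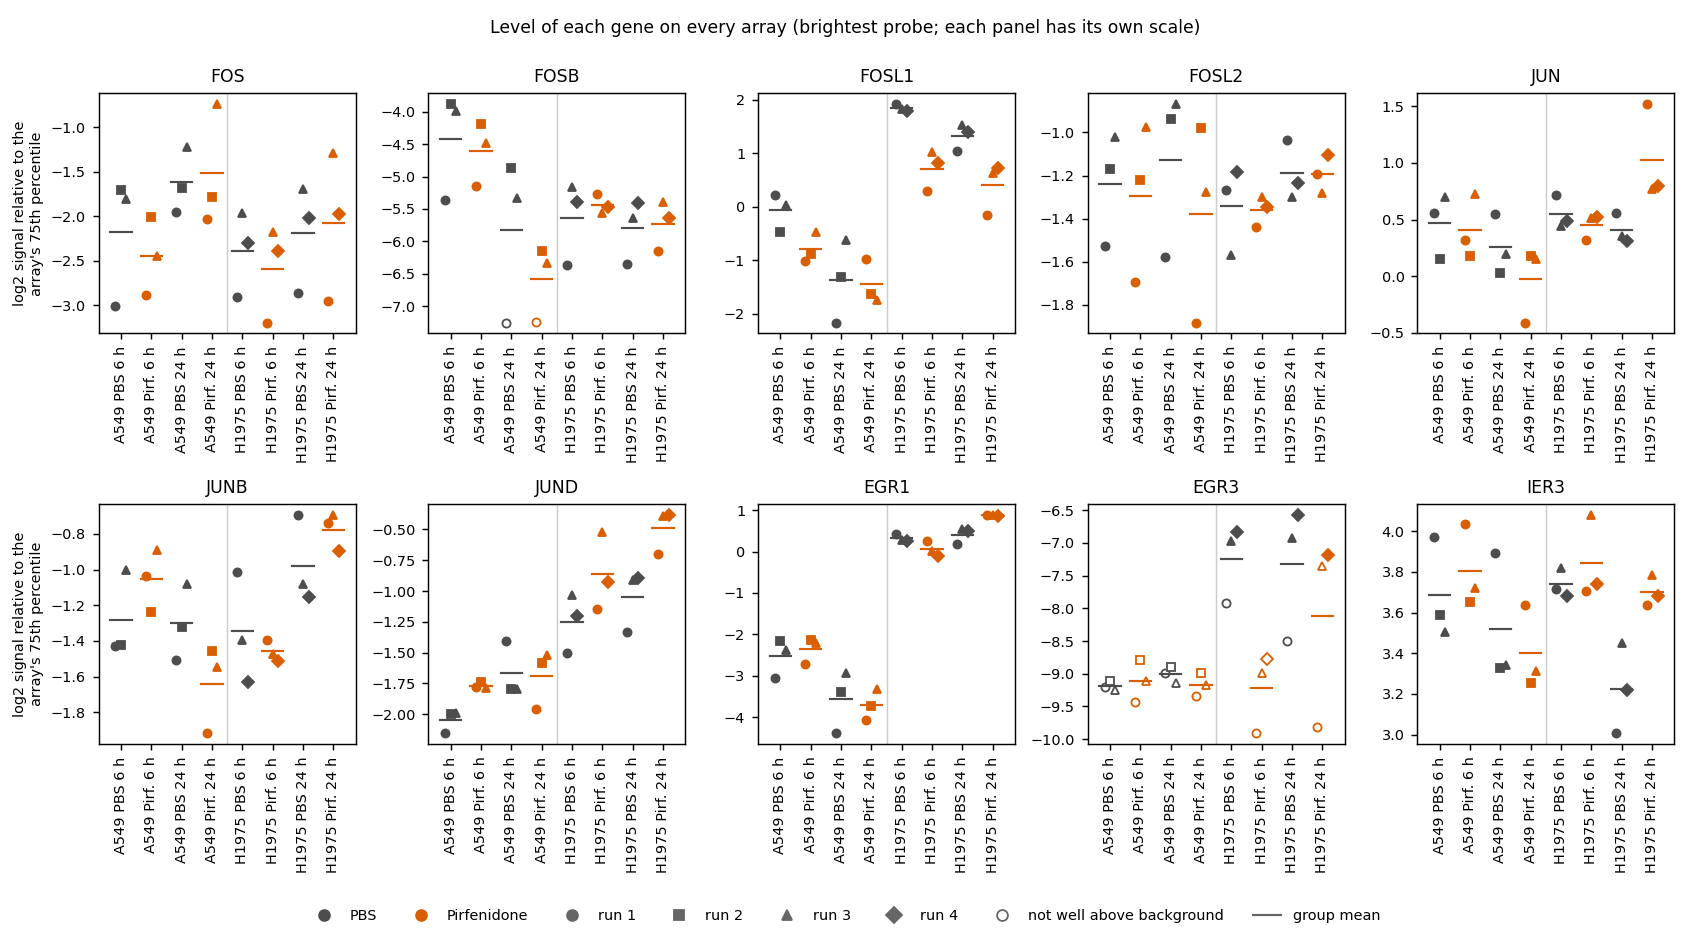
Level of each of the 10 genes on each of the 24 arrays (log2 signal relative to the array's 75th percentile, brightest probe, own scale per panel), with gray for PBS, orange for Pirfenidone, a marker shape for the run, open markers for spots not well above background and a bar for the group mean. EGR1 and FOSL1 separate the lines, and most EGR3 points are open, with all 12 A549 points among them.

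For FOSL1 in H1975 cells at 6 h, the levels were 1.91, 1.83 and 1.78 with PBS and 1.02, 0.81 and 0.29 with Pirfenidone in replicates 1, 2 and 3. Every Pirfenidone array was below every PBS array. The log2 fold change was -1.13, a level 2.20-fold lower (standard error 0.33, 95% interval -1.82 to -0.45), and its limma adjusted p of 0.108 missed the threshold. The difference was -1.62, -0.81 and -0.97 in runs 1, 3 and 4. With the slide as a random block the same value passed (limma adjusted p = 0.0217), and with the run as a block it did not (limma adjusted p = 0.0525). At 24 h the levels were 1.53, 1.40 and 1.04 with PBS and 0.63, 0.73 and -0.16 with Pirfenidone, again without overlap. The log2 fold change was -0.92 (95% interval -1.61 to -0.24, limma adjusted p = 0.097), with -1.20, -0.90 and -0.67 in runs 1, 3 and 4, and under the slide block it was -0.93 (limma adjusted p = 0.0417), short of the fold limit.

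In A549 cells at 6 h FOSL1 levels were -0.46, 0.03 and 0.22 with PBS and -0.87, -0.48 and -1.01 with Pirfenidone. The groups did not overlap, by a narrow margin, and the log2 fold change was -0.72 (95% interval -1.40 to -0.04, limma adjusted p = 0.775). At 24 h the levels were -1.31, -0.62 and -2.16 against -1.63, -1.73 and -0.97, which overlapped. Here the run 1 pair differed by 1.19 and the pairs of runs 2 and 3 by -0.31 and -1.11, so that the log2 fold change was -0.08 with all arrays and -0.71 without the run 1 pair (limma adjusted p = 0.549). The drug change of FOSL1 was not shown to differ between the lines, with a log2 difference of -0.42 at 6 h (95% interval -1.38 to 0.55) and -0.85 at 24 h (95% interval -1.81 to 0.12), or -0.21 without the run 1 pair.

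**Figure D3:**
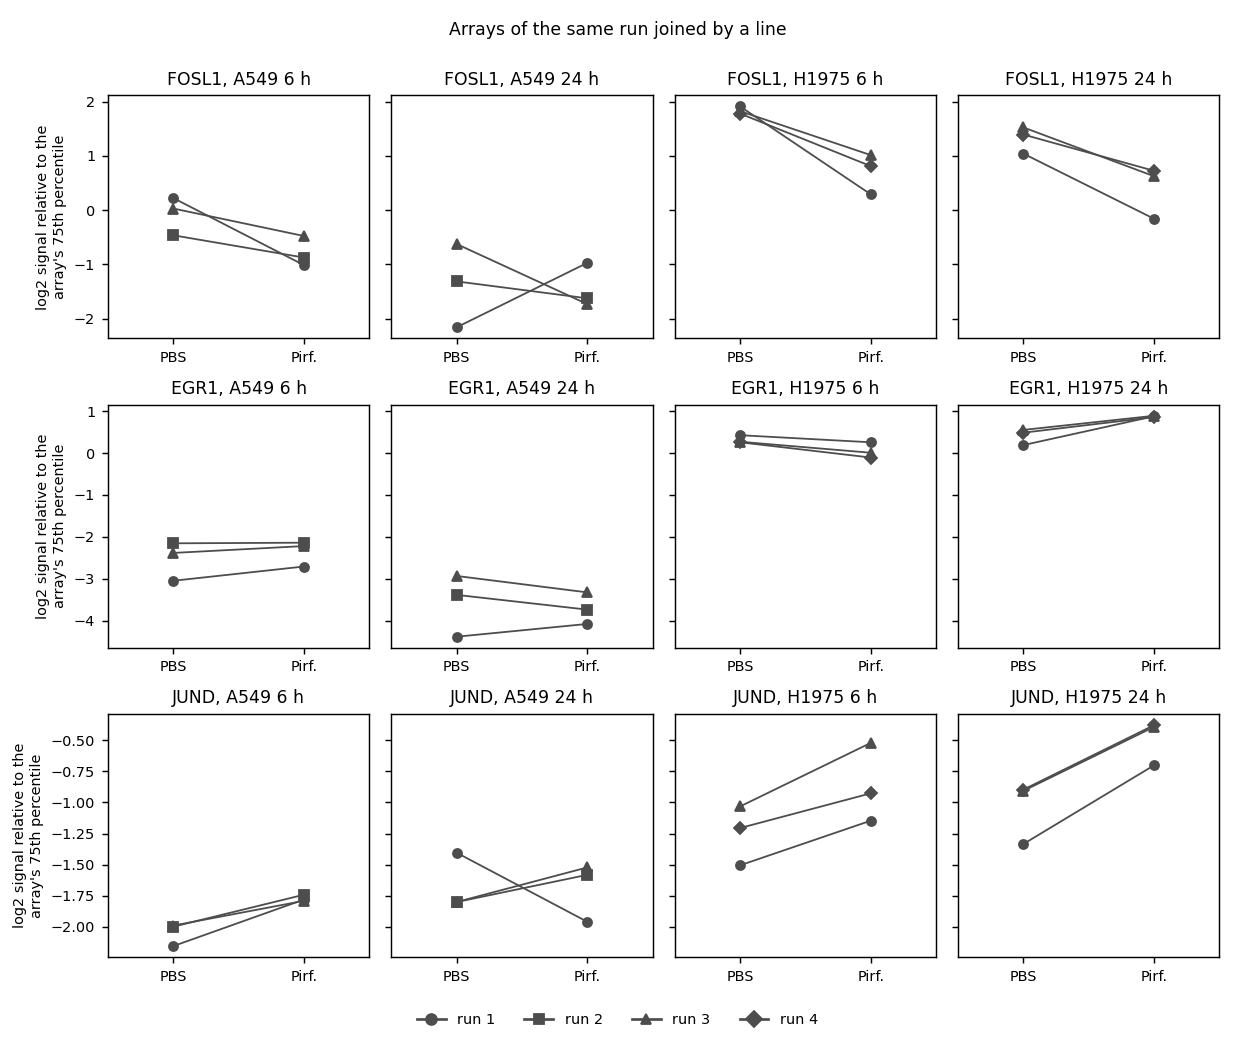
Levels of FOSL1 (top), EGR1 (middle) and JUND (bottom) with PBS and Pirfenidone (log2 signal relative to the array's 75th percentile), 1 panel per line and time, with a line joining the 2 arrays of the same run. FOSL1 lines run downward in all 3 runs of H1975 cells at both times and of A549 cells at 6 h, and the run 1 line crosses the others in A549 cells at 24 h.

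JUND, the Jun gene of resting cells, was higher with Pirfenidone in every run of 3 of the 4 comparisons. In H1975 cells at 24 h its levels were -0.91, -0.90 and -1.33 with PBS and -0.39, -0.38 and -0.70 with Pirfenidone, without overlap. The log2 fold change was 0.55 (95% interval 0.19 to 0.92, limma adjusted p = 0.0662), with 0.63, 0.51 and 0.52 in runs 1, 3 and 4. With the run as a block the limma adjusted p was 0.0276, below the fold limit all the same. At 6 h in the same line they were -1.51, -1.03 and -1.21 against -0.52, -0.93 and -1.15, a log2 fold change of 0.38 (limma adjusted p = 0.424) with overlapping groups. In A549 cells the value was 0.28 at 6 h, where the groups did not overlap, and -0.02 at 24 h, or 0.25 without the run 1 pair.

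JUN, the founding Jun gene, is represented by a probe at chr1:59246511-59246570 of hg19 on the minus strand. In H1975 cells at 24 h its levels were 0.36, 0.31 and 0.56 with PBS and 0.77, 0.80 and 1.52 with Pirfenidone. The groups did not overlap, and the highest value was that of the run 1 array. The log2 fold change was 0.62 (95% interval 0.17 to 1.07, limma adjusted p = 0.0916), with 0.96, 0.41 and 0.48 in runs 1, 3 and 4. Over the alternatives the JUN change lay between 0.37 and 0.75, below the fold limit, and its lowest limma adjusted p was 0.0327. At 6 h the change was -0.10, and in A549 cells it was -0.06 at 6 h and -0.29 at 24 h, or 0.05 without the run 1 pair. The difference of the drug change between the lines at 24 h was 0.90 (95% interval 0.27 to 1.54, limma adjusted p = 0.209), or 0.57 without the run 1 pair (limma adjusted p = 0.796).

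JUNB, whose product often opposes JUN, had levels between -1.92 and -0.69 on the 24 arrays. Its log2 fold change with Pirfenidone was 0.23 in A549 cells at 6 h, -0.34 in A549 cells at 24 h, -0.11 in H1975 cells at 6 h and 0.20 in H1975 cells at 24 h, all with overlapping groups. For IER3, the brighter probe (chr6:30711312-30711371 of hg19, minus strand) gave 3.45, 3.22 and 3.01 with PBS and 3.78, 3.68 and 3.64 with Pirfenidone in H1975 cells at 24 h. These groups did not overlap, and the log2 fold change was 0.47 (95% interval 0.11 to 0.83, limma adjusted p = 0.109), while the second probe gave 0.44. Over the alternatives the IER3 change lay between 0.36 and 0.59, below the fold limit, and its lowest limma adjusted p was 0.0084. In the other comparisons the IER3 change lay between -0.12 and 0.12 on either probe.

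With Pirfenidone, EGR1 in A549 cells was at -2.14, -2.22 and -2.71 after 6 h and at -3.73, -3.32 and -4.07 after 24 h, which overlapped with PBS. EGR1 in H1975 cells was at 0.01, -0.11 and 0.26 after 6 h and at 0.89, 0.86 and 0.88 after 24 h. All 3 H1975 arrays at 6 h were at or below the PBS arrays, the nearest of them by less than the printed digits, and all 3 at 24 h were above. The log2 fold changes were 0.17, -0.15, -0.27 and 0.47 for A549 cells and then H1975 cells, each at 6 h and 24 h, and the limma adjusted p was lowest in the last, at 0.371. These p-values use 1 spread estimated over all 8 groups, and the EGR1 spread was wider in every A549 group than in every H1975 group. Without the run 1 pair the EGR1 value in A549 cells at 24 h was -0.37 (limma adjusted p = 0.786).

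EGR3, the second EGR gene, was dim. On A549 arrays its probe was not well above background in any group. In H1975 cells at 6 h the levels were -7.93, -6.97 and -6.83 with PBS, the first not well above background, and -8.99, -8.77 and -9.91 with Pirfenidone, none well above background. Because the Pirfenidone side is not well above background, only a rough bound is given, 1.07-fold higher with PBS. It sets the mean of the PBS arrays against a floor on each Pirfenidone array. This floor is the lowest signal among probes well above background, or the probe's own signal if that was higher. As the first PBS array was not well above background either, the value is not a firm lower bound. The probe's own signals differed by -1.98, -2.02 and -1.94 in runs 1, 3 and 4, lower with Pirfenidone in each, but rest on the same dim signals. At 24 h the levels were -6.93, -6.57 and -8.50 with PBS and -7.36, -7.19 and -9.81 with Pirfenidone, and 2 and 1 of the 3 arrays were well above background. The difference there was -1.32, -0.43 and -0.62 in runs 1, 3 and 4.

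FOS, the founding Fos gene, is covered by a probe at chr14:75748214-75748273 of hg19 on the plus strand. Its levels with PBS were -1.71, -1.80 and -3.01 in A549 cells at 6 h, and -2.90, -1.96 and -2.30 in H1975 cells at 6 h. With Pirfenidone they were -2.01, -2.44 and -2.89 and -2.18, -2.39 and -3.19. In all 8 groups the lowest FOS value was that of the run 1 array, so the spread within each group ran along the run. The log2 fold changes were -0.28, 0.10, -0.20 and 0.12 in the same order, and the 95% intervals reached from -1.24 to 1.09. FOSB gave -0.19, -0.76, 0.20 and 0.07, where the A549 value at 24 h rests on groups in which the run 1 array was not well above background, and without that pair it was -1.14 (limma adjusted p = 0.511). FOSL2 gave -0.06, -0.25, -0.02 and -0.0018, with levels between -1.88 and -0.87 on all arrays.

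**Figure D4:**
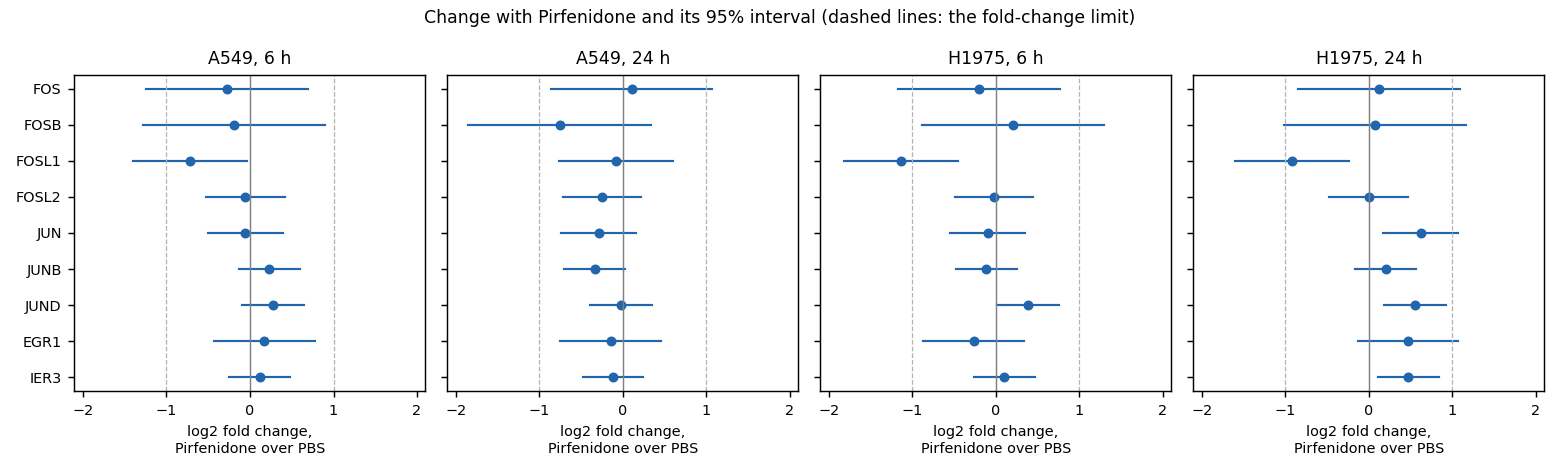
Log2 fold change with Pirfenidone over PBS for the 9 genes tested in the 4 comparisons of line and time, with points for the limma estimate from 3 arrays per group, bars for its 95% interval and dashed lines at the fold-change limit. The bars of FOSL1 lie below 0 in A549 cells at 6 h and in H1975 cells at both times. Those of JUN, JUND and IER3 lie above 0 in H1975 cells at 24 h. None of these passed after adjustment in this fit, which has no block for run or slide.

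The difference of the drug change between lines or times did not pass for any of the 10 probes. Called were 0 of 10 for H1975 minus A549 at 6 h (0.0336% of all probes) and 0 of 10 at 24 h (0.193%), and 0 of 10 for 24 h minus 6 h in A549 cells (0.0294%) and in H1975 cells (0.0042%). At an unadjusted limma p under 0.05 the counts were 0, 5, 1 and 1, against 2.63%, 12.2%, 3.04% and 5.86% of all probes. The 5 at 24 h were JUN, JUNB, JUND and both IER3 probes, whose log2 differences were 0.90, 0.54, 0.57, 0.59 and 0.56, and their lowest limma adjusted p was 0.209. Over the alternatives, the IER3 difference was at most 0.71, below the fold limit, and its lowest limma adjusted p was 0.0382. Without the run 1 pair the 5 differences were 0.57, 0.50, 0.31, 0.52 and 0.51, and 3 probes (EGR1 and both IER3 probes) had an unadjusted p under 0.05.

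Between 6 h and 24 h in PBS, 0 of 10 probes were called in A549 cells, against 0.109% of all probes, and 0 of 10 in H1975 cells, against 0.315%. At an unadjusted limma p under 0.05 there were 4 (EGR1, FOSB, FOSL1 and JUND) and 3 (JUNB and both IER3 probes), against 8.49% and 10.6%. In A549 cells the log2 change from 6 h to 24 h was -1.04 for EGR1, -1.41 for FOSB and -1.30 for FOSL1, with limma adjusted p of 0.212, 0.462 and 0.149. FOSL1 was without overlap between the times and EGR1 was not, since its replicate 2 at 24 h, at -2.93, lay above replicate 3 at 6 h, at -3.05. Within runs 1, 2 and 3 the change was -1.33, -1.23 and -0.55 for EGR1, -1.89, -0.99 and -1.34 for FOSB, and -2.38, -0.85 and -0.65 for FOSL1, lower at 24 h in each. In A549 cells the replicate numbers of PBS arrays follow the runs across the times, and the calls changed with a block. EGR1 was called with the replicate number as a block (limma adjusted p = 0.0173), FOSB with the run as a block (0.0447), and EGR1, FOSB and FOSL1 with the slide as a random block (0.00837, 0.0351 and 0.0278). Without the run 1 arrays at 24 h, and with the run 1 array at 6 h kept, the changes were -0.63, -0.69 and -0.90. For EGR1 and FOSB that 6 h array was the lowest of its group. This fit is therefore unbalanced, and the values within runs compare like with like. In H1975 cells the IER3 change was -0.51 (limma adjusted p = 0.223) and the FOSL1 change -0.52 (limma adjusted p = 0.659), both without overlap. In all, 2 of 10 probes in A549 cells and 3 of 10 in H1975 cells had no overlap between the times, against 15% and 18.9% of all probes.

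Across the 24 arrays, with the mean of each line removed, the pairs of genes with the highest Pearson r were EGR1 with FOSB at 0.79, EGR1 with JUNB at 0.64, JUN with JUNB at 0.62 and FOS with JUND at 0.51. The lowest were FOSL1 with JUND at -0.63 and FOSL2 with IER3 at -0.58. Among all other probes tested, those close to FOSL1 included C11orf68 at 0.94 and ATF5 at 0.91, and C11orf68 is the next gene after FOSL1 in the gene table. Those closest to EGR1 were WDR66, SPINK1 and SBSN, all at 0.79. For FOS they were EPHX1 at 0.91, SYT3 at 0.90 and FAM210B at 0.88, and for JUN they were TLDC1 at 0.86, OLAH at 0.84 and DRAM1 at 0.80. The arrays share runs and slides, so these values are descriptions only.

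Among other leucine zipper factors that pair with Fos and Jun or compete with them, DDIT3 rose with Pirfenidone in A549 cells at 6 h and in H1975 cells at both times, JDP2 in H1975 cells at both times, and ATF3 in H1975 cells at 24 h. This list held 16 genes, 15 of them tested with 23 probes. In A549 cells 1 probe was called higher at 6 h, against 0.176% of all probes called, and 0 at 24 h, against 0.0126%, with or without the run 1 pair. In H1975 cells 2 were called higher at 6 h, against 0.491%, and 5 at 24 h, of 3 genes, against 1.89%, and 0 were called lower in any of the 4 comparisons. The list's median log2 fold change was 0.10, -0.07, 0.23 and 0.21, beside -0.01, -0.02, 0.05 and 0.02 over all probes.

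DDIT3, a stress-induced factor also called CHOP, had levels of -1.77, -1.47 and -2.25 with PBS and -0.35, 0.31 and 1.13 with Pirfenidone in A549 cells at 6 h. The groups did not overlap, and DDIT3 rose by 2.19 on the log2 scale, a fold of 4.57 (standard error 0.42, limma adjusted p = 0.0233), with 3.39, 1.42 and 1.78 in runs 1, 2 and 3. At 24 h in A549 cells the value was -0.13, or 0.02 without the run 1 pair. In H1975 cells the DDIT3 levels at 6 h were -0.46, -0.76 and -0.67 against 0.96, 1.16 and 2.24. DDIT3 rose there by 2.08 at 6 h (limma adjusted p = 0.0148) and by 1.71 at 24 h (limma adjusted p = 0.0221), without overlap.
The DDIT3 calls held under blocks for replicate, run and slide, with a highest limma adjusted p of 0.0108, and were lost without some single arrays. In a check chosen after seeing the data, with each array of a comparison left out in turn, the DDIT3 change stayed between 1.81 and 2.55 in A549 cells at 6 h, where the call was lost without any of the 3 PBS arrays or Pirfenidone replicates 2 or 3. It stayed between 1.69 and 2.33 in H1975 cells at 6 h, where the call was lost without PBS replicate 2 or 3 or Pirfenidone replicate 3. It stayed between 1.26 and 2.01 in H1975 cells at 24 h, where the call was lost without any of the 3 PBS arrays or Pirfenidone replicate 3.

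JDP2, a repressor that pairs with Jun proteins, had levels of 0.07, -0.71 and -0.74 with PBS and 0.89, 1.17 and 2.23 with Pirfenidone in H1975 cells at 6 h. At 24 h they were -0.39, -0.40 and 0.82 against 1.44, 1.53 and 2.71. The groups did not overlap, the run 1 array was highest in each, and JDP2 rose by 1.89 at both times (limma adjusted p = 0.0218 at 6 h and 0.0115 at 24 h). The change was 2.16, 1.60 and 1.91 in runs 1, 3 and 4 at 6 h and 1.90, 1.83 and 1.93 at 24 h. With 1 array left out it lay between 1.49 and 2.16 at 6 h, without a call when PBS replicate 2 or 3 or Pirfenidone replicate 3 was missing. At 24 h it lay between 1.48 and 2.29, without a call when PBS replicate 1 or Pirfenidone replicate 3 was missing. In A549 cells JDP2 gave 0.97 at 6 h (limma adjusted p = 0.657) and -0.08 at 24 h, or 0.22 without the run 1 pair.

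ATF3, a stress-induced repressor of the same family, has 4 probes. The brightest gave 0.17, 0.16 and -0.03 with PBS and 1.02, 1.15 and 2.18 with Pirfenidone in H1975 cells at 24 h. Without overlap, ATF3 rose there by 1.35, 1.09 and 1.35 on 3 of its probes (limma adjusted p = 0.011, 0.00974 and 0.0207), while the other probe gave -0.14 (limma adjusted p = 0.759). Without Pirfenidone replicate 3, of run 1, the 3 values were 0.99, 0.82 and 0.96 and did not pass, and the probe at 0.96 also did not pass without any 1 of the PBS arrays. At 6 h the brightest probe gave 1.02 in H1975 cells (limma adjusted p = 0.0913) and 0.91 in A549 cells (limma adjusted p = 0.324), and in A549 cells at 24 h it gave -0.38, or -0.27 without the run 1 pair. The difference between the lines in the drug change at 24 h was 1.73 for ATF3, 1.84 for DDIT3 and 1.97 for JDP2, with limma adjusted p of 0.0824, 0.194 and 0.156, so none passed. Without the run 1 pair these were 1.62, 1.69 and 1.67, with limma adjusted p of 0.332, 0.56 and 0.581.

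**Figure D5:**
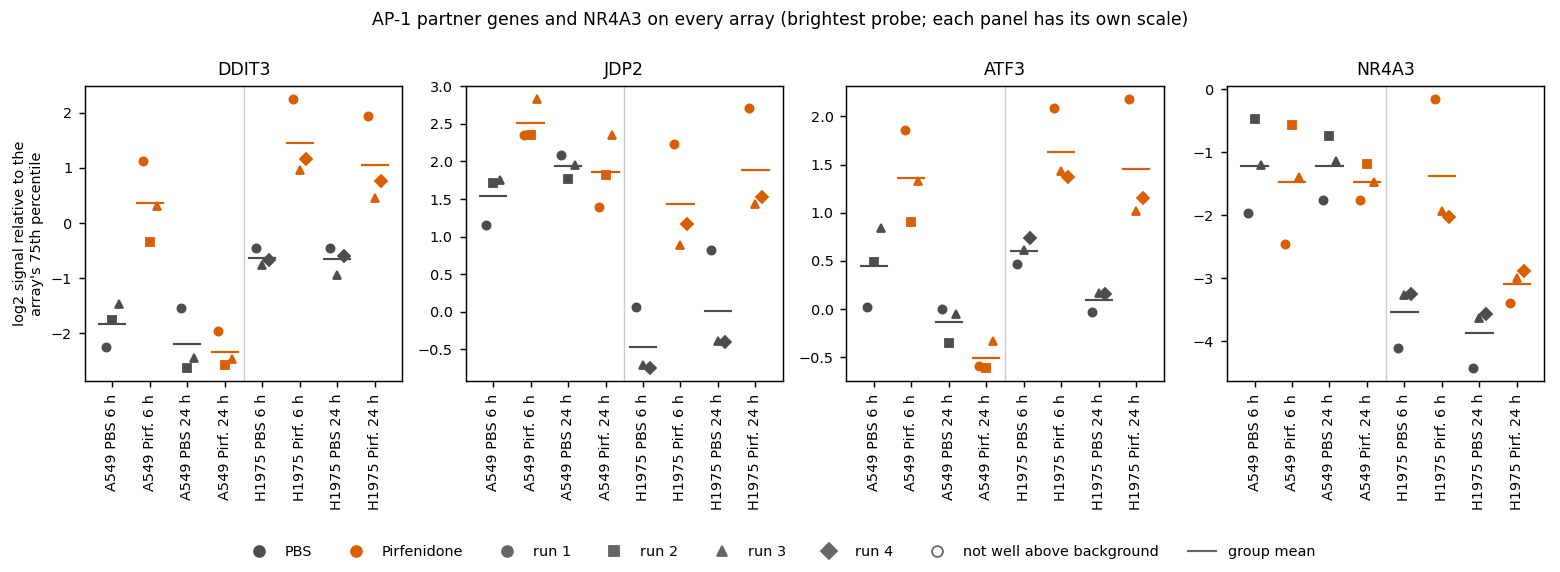
Levels of DDIT3, JDP2, ATF3 and NR4A3 on each of the 24 arrays (log2 signal relative to the array's 75th percentile, brightest probe, own scale per panel), with gray for PBS, orange for Pirfenidone, a marker shape for the run and a bar for the group mean. In H1975 cells the Pirfenidone arrays of DDIT3, JDP2 and ATF3 lie above the PBS arrays of the same time, with the run 1 array highest.

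In the same H1975 samples the genes upstream of AP-1 and EGR1 did not pass. Of 22 genes for kinases and factors that act with SRF, 34 probes were tested and 0 were called with Pirfenidone in any of the 4 comparisons, and of 9 genes for EGR co-repressors and for turnover of Jun proteins 0 of 11 probes were called. Among 28 other immediate early genes tested with 32 probes, 1 was called, in H1975 cells at 6 h, where 0.491% of all probes were called. This was NR4A3, an orphan nuclear receptor, with levels of -4.10, -3.26 and -3.25 with PBS and -1.92, -2.03 and -0.16 with Pirfenidone. Without overlap, NR4A3 rose by 2.17 (limma adjusted p = 0.0373), of which run 1 gave 3.94 and runs 3 and 4 gave 1.34 and 1.22. Without Pirfenidone replicate 3, of run 1, the NR4A3 value was 1.56 (limma adjusted p = 0.159), and the call was also lost without any of the 3 PBS arrays or Pirfenidone replicate 1. At 24 h the median log2 fold change of these 32 probes was 0.21 in H1975 cells and -0.10 in A549 cells, beside 0.02 and -0.02 over all probes. In A549 cells 30 of 32 were below 0, against 59% of all probes, and 19 of 32 without the run 1 pair, with a median of -0.05.

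Genes that AP-1 and EGR1 are known to regulate were counted in the same way. Of 24 AP-1 target genes with 31 probes tested, 1 probe was called higher and 1 lower in H1975 cells at 24 h, where 1.89% of all probes were called, and 0 elsewhere with Pirfenidone. SPP1, which encodes osteopontin, rose by 1.95 (limma adjusted p = 0.0126), from levels of -4.00, -3.60 and -5.06 to -2.34, -2.18 and -2.28, without overlap. The SPP1 call was lost without PBS replicate 3, at 1.53, and without Pirfenidone replicate 3, at 1.96. The called FLNA probe, the dimmest of the 3 for this actin cross-linker, fell by 1.46 (limma adjusted p = 0.0295), with -0.32, -1.56 and -2.50 in runs 1, 3 and 4. It lay near background. With PBS, all 3 H1975 arrays at 24 h (mean -6.12) but 2 of 3 at 6 h and no A549 array were well above it. The group it fell from thus let this probe pass the filter on dim probes, and the fall is not a firm result. The other FLNA probes gave 0.15 and 0.09, and the call was lost when any 1 of 5 of its 6 arrays was left out.

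Of 13 EGR1 target genes with 18 probes, 1 was called lower in H1975 cells at 6 h and 2 higher at 24 h, against 0.491% and 1.89% of all probes, with 0 in A549 cells. F3, which encodes tissue factor, had levels of 1.42, 1.48 and 1.51 with PBS and 0.49, 0.30 and -0.09 with Pirfenidone at 6 h. Without overlap, F3 fell by 1.24 (limma adjusted p = 0.0119), with -1.51, -0.9952 and -1.21 in runs 1, 3 and 4, and the call was lost without PBS replicate 3 or Pirfenidone replicate 3. At 24 h F3 gave -0.01. NDRG1, a stress-responsive gene, rose at 24 h by 1.44 (limma adjusted p = 0.00574), from 3.81, 3.80 and 3.56 to 5.12, 5.14 and 5.22, and kept its call with each array left out. Under the 3 blocks all list probes called with Pirfenidone kept their calls. VEGFA, an angiogenic factor, rose by 1.06 on its dimmer probe (limma adjusted p = 8.6e-04) and gave 0.82 on its brighter one (limma adjusted p = 0.0543). Without Pirfenidone replicate 3 the VEGFA value of 0.95 was under the fold limit. The dimmer VEGFA probe was also the single list probe whose drug change differed between lines at 24 h, by 1.15 (limma adjusted p = 0.0282), a call lost in 8 of the 12 fits that left out 1 array and without the run 1 pair, where the difference was 1.21 (limma adjusted p = 0.0841).

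With PBS, the lists differed between lines in both directions. Of the 23 AP-1 partner probes, 3 were higher and 6 lower in H1975 cells at 6 h, and 4 and 7 at 24 h (4 and 8 without the run 1 pair), against 32.4% and 32.9% of all probes called. BATF, the leucine zipper factor known from lymphocytes, was not well above background in A549 cells and was at least 14.0-fold higher in H1975 cells at 6 h and 17.5-fold at 24 h, taking the lowest signal above background on the A549 arrays. The fitted BATF differences had limma adjusted p of 2.4e-07 and 4.4e-09. JDP2 was lower in H1975 cells by a log2 difference of -2.004 at 6 h, and MAFK, a small Maf factor, by -2.08 at 24 h.

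Of the 32 probes of other immediate early genes, 5 were higher and 6 lower in H1975 cells at 6 h, and 5 and 8 at 24 h. Without the run 1 pair the counts at 24 h were 4 and 7. EGR2 was higher in H1975 cells by at least 10.4-fold at 24 h, while at 6 h 1 of 3 A549 arrays was well above background, and EGR4 was higher by at least 5.57-fold and 4.34-fold. ZFP36, which promotes decay of early transcripts, was lower in H1975 cells by a log2 difference of -3.44 at 6 h, and DUSP1, a MAP kinase phosphatase, by -3.48 at 24 h. 

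Of the 34 probes of upstream genes, 2 were higher and 2 lower at 6 h, and 2 and 3 at 24 h, or 3 and 2 without the run 1 pair. BRAF differed by 1.33 and 1.39 at the times, 1 of 3 EGFR probes by 1.16 at 6 h, and 1 of 2 MAPK9 probes by -1.06 and -1.27. Of the 11 probes for co-repressors and turnover, 0 were higher and 3 lower at 6 h, and 0 and 2 at 24 h. Both NAB1 probes, for a co-repressor of EGR proteins, were lower in H1975 cells, by -2.81 at 6 h and -2.91 at 24 h on the one and by -2 at 6 h and -2.04 at 24 h on the other, and DET1 differed by -1.03 at 6 h.

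The 31 AP-1 target probes were called higher in 10 and lower in 5 at 6 h, and in 12 and 6 at 24 h, or 12 and 5 without the run 1 pair. IL6, an inflammatory cytokine, was higher in H1975 cells by 6.67 at 6 h and 5.67 at 24 h, and SPP1 was lower, by -6.41 and -6.22. MMP3, a matrix metalloproteinase, was at least 9.69-fold higher at 6 h and MMP1 at least 17.0-fold at 24 h. The 18 EGR1 target probes were called higher in 6 and lower in 6 at 6 h, and in 8 and 6 at 24 h, with or without the run 1 pair. ICAM1, a leukocyte adhesion molecule, was higher by 5.84 and 7.01, and FGF2, a growth factor, was at least 181-fold and 138-fold lower on its brighter probe, as it was not well above background in H1975 cells. Between 6 h and 24 h in PBS, 0 probes of any of these 6 lists were called in either line.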

How the data were processed

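The 24 arrays measured RNA of A549 and H1975 cells, 3 per group of line, treatment and time, grouped by the sample labels. Spot intensity comes from the deposited scanner files, which the authors extracted with Agilent Feature Extraction 11.5.1.1, background-subtracted and not normalized between arrays. A deposited table holds processed log2 values of the same arrays, 34183 rows. Set against the scanner values (r of 0.9988), these were centered on the median of each probe, kept the log2 scale and direction, and had column medians from -0.163 to 0.156. They served as an alternative.

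Each array's 75th percentile was subtracted from its log2 processed signals, taken over 43118 spots, without outlier spots, with spots of a probe averaged. A total of 23827 probes, well above background (at least 0.5 of a probe's spots) on all 3 arrays of at least 1 group, entered 1 limma 3.58.1 fit (R 4.3.3) over the 8 groups (residual degrees of freedom: 16). The threshold was 0.05 after Benjamini-Hochberg adjustment, with a fold-change limit of 1 on the log2 scale. The limma fit of the 4 drug comparisons was tested on simulated arrays, which had no run or slide effect. The array number limits the precision.

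The study's Westfall-Young permutation cannot reach 0.05 with 3 arrays against 3 and was replaced by the adjusted p. The genes and all lists were chosen with earlier results of these data known, and the lists do not stand as independent evidence. Named were all 10 genes, every list probe called with Pirfenidone, the 3 largest differences per list between lines, and the 3 probes with the highest Pearson r to FOS, EGR1, FOSL1 and JUN, except for a few items that are not reported here. The brightest probe had the highest mean over all arrays. Probe positions are hg19, from the array files. Promoters are RefSeq, GRCh38.p14. No entry was used for FOSL1, IER3 and EGR3. Alternatives were quantile normalization, the authors' log2 values, normexp background correction (offset 50) and other filters on dim probes. Others were blocks for replicate number, slide or run, only the arrays compared, no fold-change limit, the mean of a gene's probes, and each array left out. The run 1 pair of A549 arrays at 24 h was also left out. For the drug comparisons an ordinary t-test paired by run was added, which is not the moderated test that the study names. The blocks and left-out arrays for list probes were added after seeing the data. Samples of PBS and Pirfenidone with the same number shared a run except in H1975 cells at 6 h, and their deviations correlated at 0.70, 0.58 and 0.64 in A549 cells at 6 h, 0.40, 0.08 and -0.10 at 24 h, and 0.46, 0.53 and 0.72 in H1975 cells at 24 h. In H1975 cells at 6 h they correlated at -0.48, 0.43 and -0.68, against 0.82, 0.50 and 0.70 for samples of the same run. The numbers thus paired the samples in some comparisons, and both the number and the run served as blocks.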

Additional observations from a re-analysis of the deposited data

Results flagged for a closer look

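In 3 genes, all 3 within-run differences between Pirfenidone and PBS had 1 sign in one comparison and the opposite sign in another. EGR1 gave 0.17 in A549 cells at 6 h and -0.27 in H1975 cells at 6 h (limma interaction adjusted p = 0.9998), and -0.27 in H1975 cells at 6 h against 0.47 at 24 h (limma interaction adjusted p = 0.933). IER3 gave 0.12 in A549 cells at 6 h and -0.12 at 24 h (limma interaction adjusted p = 0.9999), and the latter stood against 0.47 in H1975 cells at 24 h (limma interaction adjusted p = 0.321). JUNB gave 0.23 in A549 cells at 6 h and -0.34 at 24 h (limma interaction adjusted p = 0.9999). None of the interaction terms passed, so these differences were not shown.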

How the results depend on the processing

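Every alternative left 0 of the 10 probes called with Pirfenidone in A549 cells at both times and in H1975 cells at 24 h, and 2 or 3 called between lines, where FOSB joined EGR1 and FOSL1 at 6 h under some, and JUND at both times without the fold-change limit (0.80 and 0.62). In H1975 cells at 6 h, 1 probe, FOSL1, passed with the slide as a random block. It also passed by an ordinary t-test paired by run without adjustment, and 0 probes passed that t-test after Benjamini-Hochberg adjustment. Between 6 h and 24 h in A549 cells with PBS, where 0 were called, the replicate block called 1 (EGR1), the slide block 3 (EGR1, FOSB and FOSL1) and the run block 1 (FOSB). Leaving out 1 array gave 0 to 1 there, the 1 being FOSL1, at -1.67 without PBS replicate 2 at 24 h. Otherwise the replicate block changed only the call of FOSB between lines at 6 h, at -1.22. No direction of a called value reversed. Among the 10 genes, signal near background limits FOSB in A549 cells at 24 h and EGR3 everywhere. The cause of these changes was not tested.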
